A study of Mus musculus with 9 samples.

Results

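The 36 genes described here serve the uptake of fatty acids and their oxidation, chiefly in mitochondria, or regulate these steps. They were chosen as a list of symbols that covers uptake, activation, the carnitine shuttle, the beta-oxidation enzymes and their regulators. All 36 were among the 55367 symbols of the count table, and all 36 passed the filter on low counts that left 15138 genes for testing. RNA sequencing of mouse left ventricle gave 3 libraries in each of 3 groups: myocardial infarction with BPD treatment (MI+BPD), myocardial infarction (MI) and sham surgery (Sham). The tissue of the MI+BPD and MI groups was taken 14 days after infarction and included the infarct and its surroundings, a region that Sham hearts do not have. The series text aims the treatment at the proliferative phase of repair and asks about fibroblast activation. What BPD stands for, its dose and its timing in days are not stated in the labels, which also give no strain, sex or age, and give no time for Sham. They do not say that the 3 libraries of a group came from separate animals. A p-value therefore sets a difference against the spread between these libraries, which may not be the spread between animals.

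The adult heart draws most of its energy from long-chain fatty acids. Lipoprotein lipase frees them from circulating triglyceride, CD36 and transport proteins bring them across the cell membrane, and acyl-CoA synthetases activate them. The carnitine shuttle moves the activated chains into the mitochondrial matrix, where each turn of beta-oxidation runs through a dehydrogenase, a hydratase, a second dehydrogenase and a thiolase, and passes electrons to the respiratory chain. The nuclear receptor PPAR-alpha drives many of these genes, and their mRNA is known to fall in failing and infarcted hearts, where glucose use gains weight.

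The libraries held 14451410 to 19269072 counts. Levels are given as CPM, the read count divided by library size on the usual scale, with library size adjusted by the trimmed mean of M values (TMM). The 36 genes together held 1.17% ± 0.269 of all counts in MI+BPD libraries, 0.813% ± 0.225 in MI libraries and 2.23% ± 0.0162 in Sham libraries (SD, n = 3 each). Defining markers of heart muscle were detected in every library, with none of 10 structural cardiomyocyte genes at 0. Their summed level ran from 21149 to 27994 CPM in MI+BPD libraries, from 14300 to 23543 CPM in MI libraries and from 45106 to 47838 CPM in Sham libraries. The summed level of 8 fibroblast markers ran from 20092 to 21692 CPM in MI+BPD, from 14867 to 21997 CPM in MI and from 1110 to 1275 CPM in Sham. The summed level of 8 macrophage markers ran from 1007 to 1326 CPM in MI+BPD, from 795 to 1362 CPM in MI and from 380 to 452 CPM in Sham, with no fibroblast or macrophage marker at 0. In bulk tissue fewer cells of a type and less RNA per cell cannot be told apart. The libraries of the infarcted groups were uneven. MI 3 was the highest MI library for 30 of the 36 genes, and MI+BPD 1 was the highest MI+BPD library for 32. These were also the libraries with the highest structural marker levels of their groups, with a geometric mean of 1785 CPM in MI 3 against 1041 and 1143 CPM in MI 1 and MI 2, and 2090 CPM in MI+BPD 1 against 1701 and 1548 CPM in MI+BPD 2 and MI+BPD 3. Mitochondrially encoded genes moved with them, holding 25.7%, 17.6% and 17.7% of counts in MI+BPD 1, 2 and 3, 11.4%, 11.8% and 18.2% in MI 1, 2 and 3, and 34.4% to 35.2% in Sham libraries. With these genes left out before scaling, the counts of the 36 genes called were the same in all 3 comparisons.

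Levels can be compared between genes only per length, so CPM were divided by the kilobases of annotated exon. On that scale the cytosolic carrier Fabp3 stood first in Sham, at 3627 ± 108 CPM per kb (SD, n = 3). Lpl followed at 812 ± 18.6, Cd36 at 706 ± 53.7 and Acadl at 624 ± 28.6 CPM per kb. Lpl and Cd36 did not overlap in their mean ± SD between libraries, while Cd36 and Acadl touched. That SD does not measure error in the exon length, which joins all annotated transcripts of a gene. This length ran from 823 bases for Fabp3 to 10483 for Acsl1, so the order between genes is approximate. Further down, Acadvl and Acadm, at 396 ± 32.4 and 388 ± 8.87 CPM per kb, lay within each other's spread, as did Acsl1 and Hadh, at 132 ± 3.49 and 132 ± 8.91. The lowest 3 in Sham were Ppard at 2.98 ± 0.138, Cpt1b at 1.397 ± 0.239 and Acad10 at 0.882 ± 0.0744 CPM per kb. Fabp3 was also first in MI+BPD libraries, at 1454 ± 406 CPM per kb, and in MI libraries, at 925 ± 409.6.

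**Figure D1:**
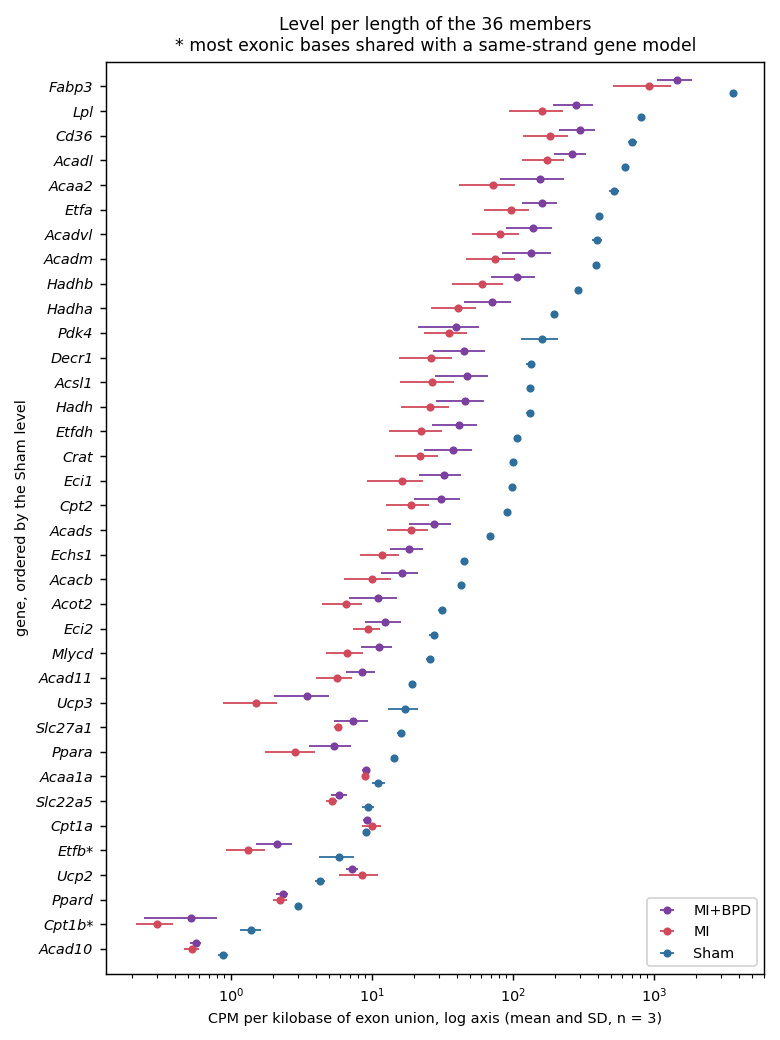
Level per length of the 36 genes, ordered by Sham, on a log axis in CPM per kilobase of exon; points are means and bars the SD of 3 libraries in MI+BPD, MI and Sham. Fabp3 lies at the top at 3627 CPM per kb in Sham, the MI+BPD and MI points lie left of Sham for most genes, and Ucp2 and Cpt1a lie at or right of it; stars mark the genes with most of their exonic bases shared with another gene model on the same strand.

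The level of Cpt1b rests on few reads. Cpt1b encodes the muscle form of carnitine palmitoyltransferase 1 and had 47, 21 and 27 counts in MI+BPD libraries, 17, 29 and 26 in MI and 46, 49 and 74 in Sham. In GENCODE M21, which may not be the annotation the authors used, 81.4% of its exonic bases are shared with a gene model on the same strand, Gm44502, which has 0 counts in every library. Etfb had 29 to 102 counts per library, and 58.2% of its exonic bases are shared with same-strand gene models, Gm45233 among them. Unlike Gm44502, Gm45233 is not a symbol of the count table, so whether it entered the counting is not known. Counting programs commonly set aside reads that fall on more than 1 gene, and which program and settings were used here is not stated, so the absolute levels of Cpt1b and Etfb are uncertain. Fabp3 shares 21.7% of its 100-base stretches with the pseudogene Fabp3-ps1 and Acot2 shares 17.1% with its neighbour Acot1. Hadhb shares 14.8% with other gene models, chiefly Gm13910, and Acaa1a shares 7.21%, chiefly with Acaa1b. Of the exonic bases of Acadvl, 42.9% overlap Dvl2 on the opposite strand, and without a known strand setting reads of these genes cannot be told apart there.

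The first question was how these genes stood after infarction. Of the 36, 34 were lower in MI than in Sham, 1 was higher and 1 did not pass, in edgeR's quasi-likelihood test with Benjamini-Hochberg adjustment over all genes at an adjusted p under 0.05. Of all genes tested, 31.9% were called lower and 37.0% higher. The median log2 fold change of the 36 was -2.16, against 0.07 over all 15138 genes. The MI and Sham libraries did not overlap for 34 genes that were lower in MI, as for 34.3% of all genes, and for 1 that was higher, as for 40.1% of all genes. Fatty acid oxidation genes are abundant in heart muscle, and 10 of 10 structural cardiomyocyte markers and 9 of 9 calcium-handling markers were also called lower, with medians of -1.31 and -1.65.

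The size of the change separated the genes. Ucp3, Acaa2 and Eci1 were lowest relative to Sham, at -3.51, -2.85 and -2.59 on the log2 scale, and 27 others lay between -2.37 (Acadm) and -1.49 (Slc27a1). The remaining 6 stood apart from this range: Slc22a5 at -0.86, Acad10 at -0.74, Ppard at -0.41, Acaa1a at -0.32, Cpt1a at 0.16 and Ucp2 at 0.99. The direction of some of these 6 depended on the scaling. With library totals in place of TMM factors the median of all genes moved by 0.73, Acaa1a and Ppard came out higher in MI (0.41 and 0.32), Cpt1a was called higher (0.90), and Slc22a5 and Acad10 no longer passed.

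**Figure D2:**
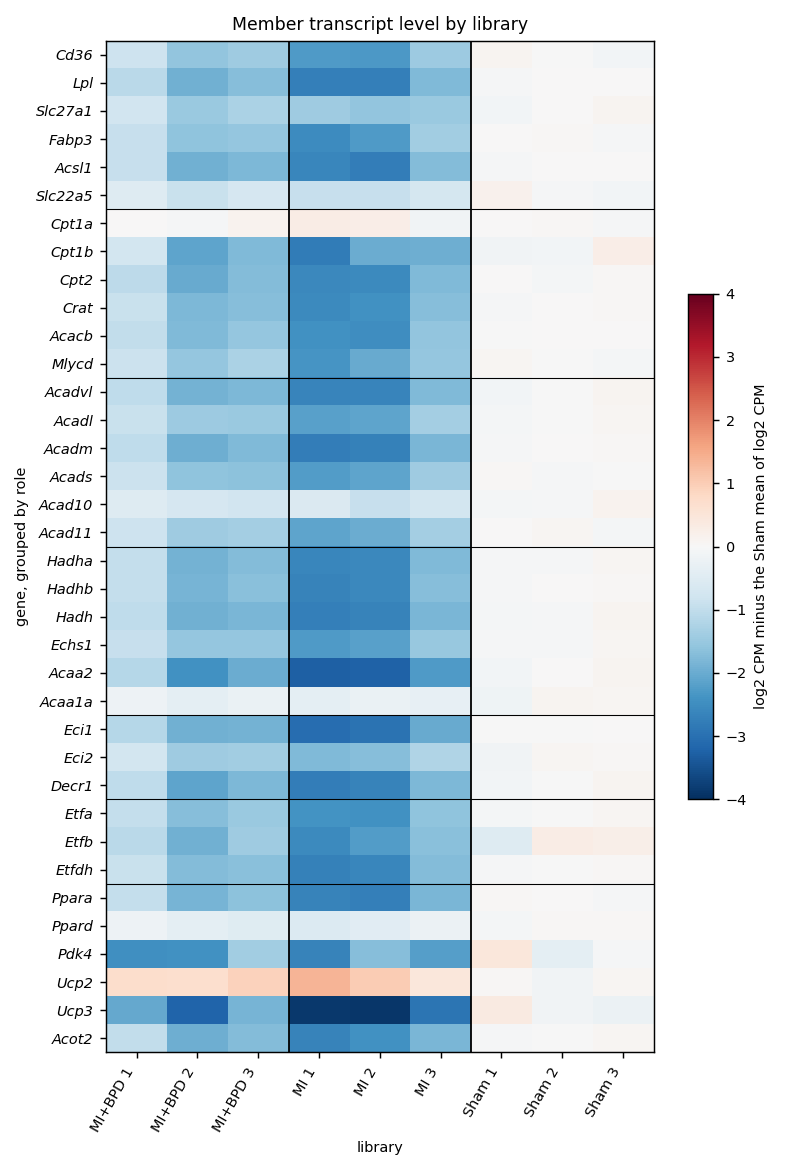
Level of each of the 36 genes in each library, as log2 CPM minus the mean log2 CPM of the Sham libraries; columns are the 3 MI+BPD, 3 MI and 3 Sham libraries, rows are grouped by role, and blue is below and red above the Sham mean. MI 1 and MI 2 hold the darkest blue, MI+BPD 1 is the palest infarcted library in most rows, and the rows of Slc22a5, Cpt1a, Acad10, Acaa1a, Ppard and Ucp2 stay pale or turn red.

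Uptake and activation genes fell together, 6 of 6 in MI and 6 of 6 in MI+BPD against Sham, with medians of -1.96 and -1.28, where 31.9% of all genes were called lower in MI and 27.8% in MI+BPD. Lpl, the lipase that frees fatty acids from lipoproteins, had 4023, 2237 and 2621 CPM in MI+BPD libraries, 1292, 1271 and 2495 CPM in MI libraries and 8292, 8569 and 8668 CPM in Sham libraries. Cd36, the membrane fatty acid translocase, had 1415, 845 and 947 CPM in MI+BPD, 530.0, 515 and 920.5 CPM in MI and 2745, 2491 and 2367 CPM in Sham. Fabp3, the heart fatty acid-binding protein, had 1581, 978 and 1031 CPM in MI+BPD, 519, 618 and 1146 CPM in MI and 3008, 3060.1 and 2887 CPM in Sham. For these 3 genes every infarcted library lay below every Sham library, and MI 3 lay above the lowest MI+BPD library, so that the MI+BPD and MI libraries overlapped.

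Lpl was 5.05-fold lower in MI than in Sham (log2 fold change -2.34 ± 0.33, SE, adjusted p = 2.60e-04, edgeR) and 2.87-fold lower in MI+BPD than in Sham (-1.52 ± 0.33, adjusted p = 0.00346). Cd36 fell by a smaller factor, 3.87-fold in MI and 2.37-fold in MI+BPD against Sham, and Fabp3 was 3.92-fold lower in MI and 2.49-fold lower in MI+BPD. Acsl1, the main acyl-CoA synthetase of the heart, had a log2 fold change of -2.30 ± 0.34 in MI and -1.48 ± 0.33 in MI+BPD against Sham. Slc27a1, a fatty acid transport protein, fell by less (-1.49 ± 0.16 in MI and -1.14 ± 0.16 in MI+BPD). Slc22a5, the sodium-dependent carnitine transporter, fell least of the 6, at -0.86 ± 0.12 in MI and -0.69 ± 0.12 in MI+BPD, and did not pass with library totals (-0.13 in MI and -0.17 in MI+BPD); it shares 12.9% of its 100-base stretches with its paralog Slc22a21.

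The carnitine shuttle divided by isoform. Cpt1a, the liver-type form of the outer-membrane enzyme that commits fatty acids to oxidation, had 69.4, 66.98 and 75.7 CPM in MI+BPD, 84.4, 83.7 and 63.4 CPM in MI and 70.3, 71.4 and 66.4 CPM in Sham. Cpt1b, the muscle-type form, had 2.82, 1.08 and 1.37 CPM in MI+BPD, 0.673, 1.18 and 1.197 CPM in MI and 4.21, 4.29 and 5.64 CPM in Sham. Cpt1a thus overlapped between all 3 groups, with MI 1 and MI 2 highest and MI 3 lowest of all 9 libraries, whereas every infarcted library lay below every Sham library for Cpt1b. The log2 fold change of Cpt1a was 0.16 ± 0.11 in MI (adjusted p = 0.241, edgeR, 95% interval -0.10 to 0.41) and 0.03 ± 0.11 in MI+BPD (adjusted p = 0.842, 95% interval -0.22 to 0.28), each against Sham. With library totals it was 0.90 in MI (adjusted p = 3.98e-04, edgeR) and 0.56 in MI+BPD (adjusted p = 0.00947), called higher in both. Without MI 3 it was 0.28 in MI and passed (adjusted p = 0.00949, edgeR). Cpt1b fell, at -2.21 ± 0.37 in MI and -1.44 ± 0.36 in MI+BPD, within the counting limit given above.

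The other shuttle genes fell in both infarcted groups. Cpt2, the inner-membrane enzyme that rebuilds acyl-CoA in the matrix, had 104, 53.9 and 64.7 CPM in MI+BPD, 36.3, 37.2 and 63.5 CPM in MI and 219.9, 207 and 222 CPM in Sham, which gave 4.74-fold lower levels in MI and 2.92-fold lower levels in MI+BPD than in Sham. Crat, which moves acetyl groups between carnitine and coenzyme A, had log2 fold changes of -2.17 ± 0.29 in MI and -1.41 ± 0.28 in MI+BPD. Acacb makes malonyl-CoA, the inhibitor of carnitine palmitoyltransferase 1, and Mlycd breaks it down. Both fell in MI, Acacb at -2.10 ± 0.27 and Mlycd at -1.94 ± 0.22, and both fell in MI+BPD, at -1.38 ± 0.26 and -1.20 ± 0.22.

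All 6 acyl-CoA dehydrogenase genes fell in MI and in MI+BPD against Sham, with medians of -1.86 and -1.29, against the same shares of all genes (31.9% and 27.8% lower). Acadm, which acts on medium chains, had 757, 389 and 442 CPM in MI+BPD, 226, 235 and 424 CPM in MI and 1484, 1522 and 1554 CPM in Sham. Acadl, which acts on long chains, had 678, 454 and 443 CPM in MI+BPD, 278, 288 and 482 CPM in MI and 1194, 1249.6 and 1309 CPM in Sham. For both genes the Sham libraries were close together and far above the rest, and MI 3 reached into the range of the MI+BPD libraries. Acadm was 5.15-fold lower in MI (adjusted p = 1.89e-04, edgeR) and 2.87-fold lower in MI+BPD (adjusted p = 0.00266), and Acadl 3.58-fold lower in MI and 2.38-fold lower in MI+BPD. The very long chain enzyme Acadvl had log2 fold changes of -2.29 ± 0.30 in MI and -1.51 ± 0.30 in MI+BPD, and the short chain enzyme Acads -1.88 ± 0.25 in MI and -1.34 ± 0.25 in MI+BPD. Acad11, a more distant member of the family, was at -1.78 ± 0.21 in MI and -1.18 ± 0.21 in MI+BPD. Acad10, another distant member, had 3.77, 3.34 and 3.15 CPM in MI+BPD, 3.602, 2.81 and 3.22 CPM in MI and 5.03, 5.16 and 5.87 CPM in Sham, a smaller difference (-0.74 ± 0.16 in MI and -0.65 ± 0.16 in MI+BPD) that did not pass with library totals in either group; 7.45% of its 100-base stretches are shared with Acad12.

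The later steps of the cycle held both the deepest and the shallowest falls among the enzymes. Acaa2, the mitochondrial thiolase that releases acetyl-CoA, had 363, 146 and 199 CPM in MI+BPD, 81.7, 84.2 and 166 CPM in MI and 727, 798 and 858 CPM in Sham. Acaa1a, a peroxisomal thiolase, had 42.9, 37.5 and 41.1 CPM in MI+BPD, 37.6, 41.00 and 39.4 CPM in MI and 43.2, 52.7 and 51.9 CPM in Sham. The Acaa2 levels of MI 1 and MI 2 were the lowest and those of MI+BPD 1 the highest of the infarcted libraries, while for Acaa1a the infarcted libraries lay close together and just below Sham. Acaa2 was 7.19-fold lower in MI (-2.85 ± 0.38, adjusted p = 1.89e-04, edgeR) and 3.36-fold lower in MI+BPD (-1.75 ± 0.36, adjusted p = 0.00307). Acaa1a was 1.25-fold lower in MI (adjusted p = 0.0108) and 1.22-fold lower in MI+BPD (adjusted p = 0.0245), and this direction turned with library totals (0.41 in MI and 0.24 in MI+BPD). The MI+BPD call of Acaa1a was also lost with no filter (adjusted p = 0.0776, edgeR) and without Sham 2, Sham 3, MI+BPD 2 or MI+BPD 3 (adjusted p = 0.05595 to 0.0919).

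Hadha and Hadhb encode the subunits of the trifunctional protein, which carries out the last 3 steps on long chains. Hadha had 888, 462 and 517 CPM in MI+BPD, 282, 285 and 501 CPM in MI and 1669, 1671 and 1811 CPM in Sham, and Hadhb had 983, 533 and 603 CPM in MI+BPD, 301, 322 and 583 CPM in MI and 1849, 1927 and 1971 CPM in Sham. The difference between the 2 subunits was smaller than either SE, with Hadha at -2.27 ± 0.31 in MI and -1.46 ± 0.30 in MI+BPD, and Hadhb at -2.25 ± 0.31 in MI and -1.44 ± 0.30 in MI+BPD, each against Sham. Hadh, the hydroxyacyl-CoA dehydrogenase of shorter chains, was 5.12-fold lower in MI and 2.88-fold lower in MI+BPD, and Echs1, the short-chain enoyl-CoA hydratase, 3.83-fold lower in MI and 2.48-fold lower in MI+BPD.

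Enzymes for unsaturated chains fell in 3 of 3 cases in both infarcted groups, where 31.9% of all genes were called lower in MI and 27.8% in MI+BPD. Eci1, an enoyl-CoA isomerase, had 95.1, 54.97 and 56.6 CPM in MI+BPD, 25.1, 27.2 and 51.6 CPM in MI and 209, 205 and 213 CPM in Sham. Its paralog Eci2 had 91.9, 57.1 and 58.3 CPM in MI+BPD, 44.5, 46.3 and 65.5 CPM in MI and 139, 161 and 157 CPM in Sham. Every MI+BPD library lay above every MI library for Eci1, by a narrow margin over MI 3, and MI 3 overlapped the MI+BPD libraries for Eci2. Eci1 was 6.04-fold lower in MI than in Sham and 3.03-fold lower in MI+BPD than in Sham, and Eci2 2.93-fold lower in MI and 2.21-fold lower in MI+BPD. Decr1, the dienoyl-CoA reductase, had log2 fold changes of -2.34 ± 0.33 in MI and -1.57 ± 0.32 in MI+BPD.

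The electron transfer flavoprotein takes electrons from the acyl-CoA dehydrogenases and hands them to ubiquinone through the oxidoreductase encoded by Etfdh. Etfdh had 437, 240.2 and 254 CPM in MI+BPD, 124, 132 and 245 CPM in MI and 784, 797 and 839 CPM in Sham, 4.82-fold lower in MI and 2.599-fold lower in MI+BPD than in Sham. The alpha subunit Etfa had log2 fold changes of -2.09 ± 0.27 in MI and -1.35 ± 0.26 in MI+BPD. The beta subunit Etfb, with its uncertain level, had -2.15 ± 0.31 in MI and -1.48 ± 0.31 in MI+BPD.

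The regulators did not move as 1 group. Ppara, the nuclear receptor that drives fatty acid oxidation genes, had 28.4, 15.4 and 17.98 CPM in MI+BPD, 8.71, 8.35 and 15.8 CPM in MI and 57.00, 55.5 and 53.98 CPM in Sham. Ppard, its broadly expressed relative, had 19.3, 17.2 and 16 CPM in MI+BPD, 15.2, 16.3 and 19.1 CPM in MI and 21.2, 22.9 and 23.1 CPM in Sham. For Ppara the infarcted libraries lay far below Sham, and for Ppard they lay just below it. Ppara was 5.09-fold lower in MI (adjusted p = 1.13e-04, edgeR) and 2.700-fold lower in MI+BPD (adjusted p = 0.00194). Ppard was 1.33-fold lower in MI (adjusted p = 0.00789, edgeR) and 1.28-fold lower in MI+BPD (adjusted p = 0.0193), a direction that turned with library totals (0.32 in MI and 0.17 in MI+BPD). The MI+BPD call of Ppard was also lost without Sham 2, Sham 3, MI+BPD 2 or MI+BPD 3 (adjusted p = 0.0579 to 0.0759, edgeR). Acot2, a mitochondrial acyl-CoA thioesterase, fell, at -2.26 ± 0.27 in MI and -1.50 ± 0.27 in MI+BPD.

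Pdk4 phosphorylates and inhibits pyruvate dehydrogenase, which limits glucose oxidation when fatty acids are burned. It had 99.97, 103 and 211 CPM in MI+BPD, 86.3, 169 and 118 CPM in MI and 744, 415 and 536 CPM in Sham. Pdk4 was among the most uneven of the 36 within Sham, and its highest infarcted library was MI+BPD 3, not MI+BPD 1. It fell to a like extent in both comparisons with Sham, 4.53-fold in MI (-2.18 ± 0.37, adjusted p = 5.98e-04, edgeR) and 4.09-fold in MI+BPD (-2.03 ± 0.36, adjusted p = 0.00156).

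The uncoupling proteins Ucp3 and Ucp2 moved in opposite directions. They are mitochondrial carriers encoded by neighbouring genes, Ucp3 found chiefly in muscle and Ucp2 in many cell types including immune cells. Ucp3 had 12.7, 5.697 and 14.5 CPM in MI+BPD, 3.64, 3.54 and 6.95 CPM in MI and 68.3, 47.4 and 45.1 CPM in Sham. Ucp2 had 48.3, 47.5 and 56.4 CPM in MI+BPD, 77.5, 60.1 and 40.8 CPM in MI and 31.1, 27.1 and 31.6 CPM in Sham. Every infarcted library lay below Sham for Ucp3 and above Sham for Ucp2, and within MI the library with the most Ucp3, MI 3, had the least Ucp2. Ucp3 was 11.4-fold lower in MI (adjusted p = 7.56e-05, edgeR) and 4.88-fold lower in MI+BPD (adjusted p = 8.41e-04), while Ucp2 was 1.99-fold higher in MI (adjusted p = 0.00183) and 1.69-fold higher in MI+BPD (adjusted p = 0.00981). Macrophage markers were higher in the same groups, as given above, and their part in the level of Ucp2 was not tested.

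**Figure D3:**
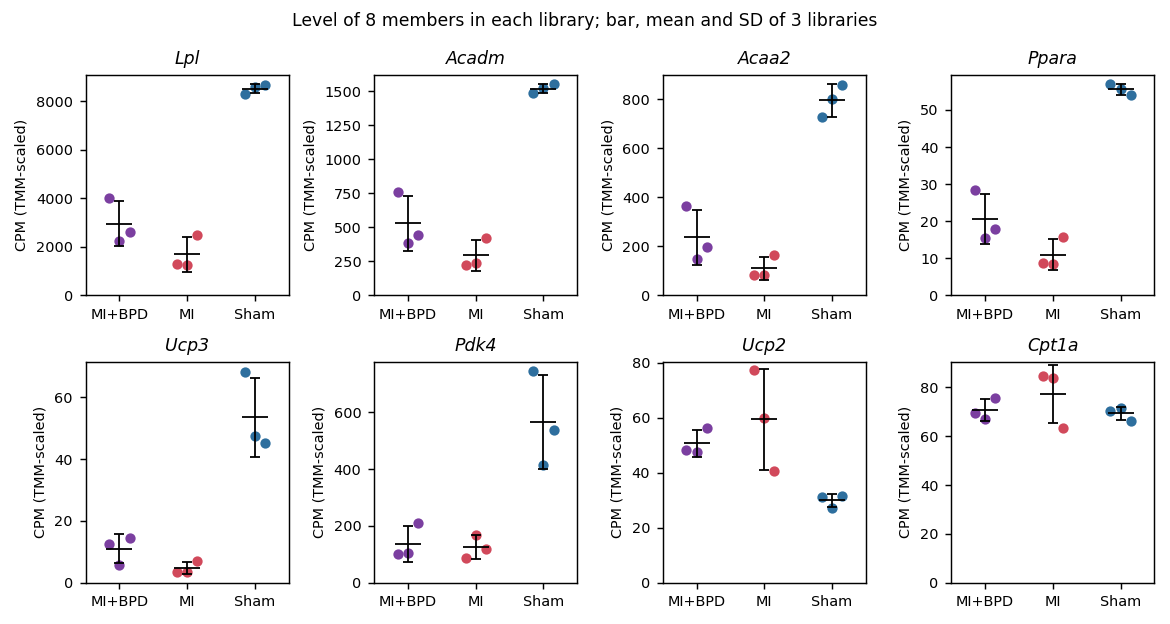
Level in CPM of Lpl, Acadm, Acaa2, Ppara, Ucp3, Pdk4, Ucp2 and Cpt1a in each library of MI+BPD, MI and Sham; points are libraries, the horizontal bar is the mean and the whiskers the SD of 3 libraries, and each axis starts at 0. Lpl, Acadm, Acaa2, Ppara, Ucp3 and Pdk4 lie below Sham in all 6 infarcted libraries, Ucp2 lies above it, and Cpt1a overlaps it.

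The 250 bases before the RefSeq start sites of Ucp3, Ucp2 and Cpt1a are shown because these genes, of related function, stood at the ends of the range of change: Ucp3 fell most, Ucp2 was higher in MI and Cpt1a did not pass. The sequences are from RefSeq (GRCm38.p6, plus strand, Ucp3 at chr7:100472741-100472990, Ucp2 at chr7:100493108-100493357 and Cpt1a at chr19:3323051-3323300). Capitals mark AGGTCA, the core hexamer bound by PPAR and related nuclear receptors, or its reverse complement.
Ucp3: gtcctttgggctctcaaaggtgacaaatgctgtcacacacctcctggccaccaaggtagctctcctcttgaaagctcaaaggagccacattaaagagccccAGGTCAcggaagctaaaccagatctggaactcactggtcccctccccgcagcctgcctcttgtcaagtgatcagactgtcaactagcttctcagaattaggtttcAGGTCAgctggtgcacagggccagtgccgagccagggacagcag
Ucp2: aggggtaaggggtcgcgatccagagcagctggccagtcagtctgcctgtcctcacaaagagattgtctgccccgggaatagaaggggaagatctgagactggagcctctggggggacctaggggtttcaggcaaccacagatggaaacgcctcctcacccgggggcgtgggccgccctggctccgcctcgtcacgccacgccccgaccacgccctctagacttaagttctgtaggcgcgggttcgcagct
Cpt1a: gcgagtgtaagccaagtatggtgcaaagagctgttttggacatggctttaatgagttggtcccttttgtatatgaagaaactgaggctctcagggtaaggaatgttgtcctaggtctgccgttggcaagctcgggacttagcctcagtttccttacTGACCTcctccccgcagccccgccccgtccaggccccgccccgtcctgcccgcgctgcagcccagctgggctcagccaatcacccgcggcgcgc
AGGTCA lies 149 and 44 bases before the Ucp3 start, lies on the opposite strand 94 bases before the Cpt1a start, and has no match in the Ucp2 window. Of the 36 genes, 31 matched a RefSeq window, and 6 of those held AGGTCA on either strand: Acadm, Acadvl, Cd36, Cpt1a, Echs1 and Ucp3. Of all 32851 windows of the same length, 14.0% held it. Its direct repeat with 1 base between is the consensus of the PPAR element known as DR1. An exact match was in 0 of the 31 windows and 0.0335% of all windows. TCAAGGTCA, bound by estrogen-related receptors, was in 0 of the 31 and 0.387% of all. Exact matches of both are so rare that 0 of 31 windows says nothing about these genes. Elements that depart from the consensus were not searched. Both motifs contain AGGTCA, and all motifs were searched on both strands. A match describes letters in this window and says nothing of binding.

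Set against Sham, MI+BPD hearts had 34 of the 36 genes lower, Ucp2 higher and Cpt1a not passing. With library totals 30 were lower and 2 higher, Cpt1a among the higher ones at 0.56, against 9.15% and 60.3% of all genes. Of all genes, 27.8% were called lower and 31.8% higher. The MI+BPD and Sham libraries did not overlap for 34 genes that were lower and 1 that was higher, as for 32.7% and 35.8% of all genes. The median log2 fold change of the 36 was -1.40, against 0.04 over all genes. Both comparisons share the Sham libraries, so they are not independent of each other. Ucp3 (-2.29 ± 0.36), Pdk4 (-2.03 ± 0.36) and Acaa2 (-1.75 ± 0.36) were lowest relative to Sham, and Acad10, Slc22a5, Ppard and Acaa1a fell by the smallest amounts. Structural cardiomyocyte markers were called lower in 10 of 10 cases and calcium-handling markers in 8 of 9, with medians of -0.96 and -1.14.

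**Figure D4:**
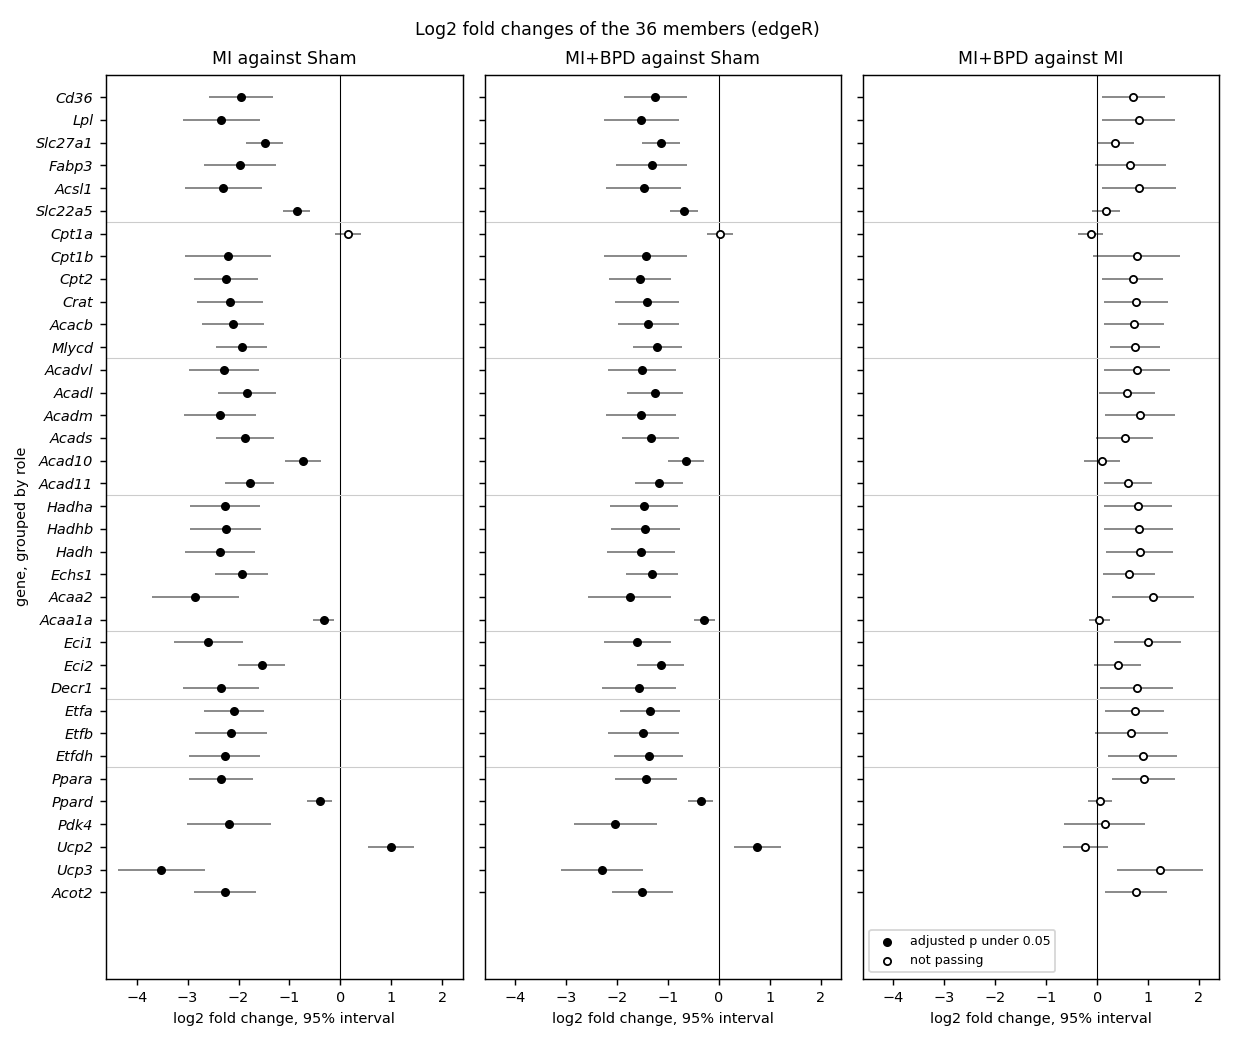
Log2 fold change of each of the 36 genes with its 95% interval in MI against Sham, MI+BPD against Sham and MI+BPD against MI; filled points have an adjusted p under 0.05 (edgeR) and open points do not. In both comparisons with Sham 34 genes lie filled left of 0 and Ucp2 lies filled right of it, and in MI+BPD against MI all 36 points are open and 34 lie right of 0.

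The effect of treatment was asked by MI+BPD against MI. None of the 36 genes was called (0%, as of all genes tested), with a smallest adjusted p of 0.369 in edgeR's quasi-likelihood test. The estimates were above 0 in 34 of 36, against 50.7% of all genes, with a median of 0.73 against 0.003 over all genes. At an unadjusted p under 0.05, 23 of the 36 were higher and 0 lower, against 8.62% and 4.88% of all genes. Limma-voom with quality weights called 23 of the 36 higher and 0 lower, against 5.42% and 1.61% of all genes, and DESeq2 called 0, against 0.139% higher and 0.199% lower. MI 3 and MI+BPD 1 were the highest libraries of their groups for most of the 36, so these counts do not add up independent results.

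The largest estimates were those of Ucp3, Acaa2 and Eci1. Ucp3 averaged 10.97 ± 4.66 CPM in MI+BPD and 4.71 ± 1.94 CPM in MI (SD, n = 3 each; log2 fold change 1.23 ± 0.38, 95% interval 0.38 to 2.07). Acaa2 averaged 236 ± 113 CPM in MI+BPD and 110.5 ± 47.7 CPM in MI (1.10 ± 0.36, 0.29 to 1.91), and Eci1 68.9 ± 22.7 CPM in MI+BPD and 34.6 ± 14.8 CPM in MI (0.99 ± 0.29, 0.34 to 1.65). The same MI libraries enter this comparison and the comparison of MI with Sham. Eci1 was the 1 gene of the 36 whose MI+BPD and MI libraries did not overlap, higher as were 6.63% of all genes, with 0 lower, as were 7.32% of all genes. Ppara was at 0.91 ± 0.27, Etfdh at 0.89 ± 0.30, Acadm at 0.84 ± 0.30 and Lpl at 0.81 ± 0.32, each with overlapping libraries.

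For a few genes the estimate was near 0. Pdk4 averaged 138 ± 63.3 CPM in MI+BPD and 125 ± 41.8 CPM in MI (0.15 ± 0.35, 95% interval -0.64 to 0.94). Acaa1a (0.04 ± 0.09), Ppard (0.05 ± 0.11), Acad10 (0.09 ± 0.16) and Slc22a5 (0.17 ± 0.12) were also near 0, and Cpt1a and Ucp2 were at -0.13 ± 0.11 and -0.23 ± 0.19. The interval of Pdk4 includes changes of the size estimated for most of the 36, whereas that of Ucp2 ran from -0.67 to 0.21.

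MI 3 and MI+BPD 1 weighed on this comparison. The summed level of the 36 genes was 15023, 8547 and 9658 CPM in MI+BPD 1, 2 and 3, against 5174, 5371 and 9431 CPM in MI 1, 2 and 3. MI 3 thus lay between MI+BPD 2 and MI+BPD 3, and MI+BPD 1 lay well above the other infarcted libraries. Without MI 3 the median of the 36 was 1.04 and 22 were called higher, against 7.29% of all genes higher and 1.47% lower. Without MI+BPD 1 the median was 0.40 with 0 called. The structural marker geometric mean averaged 1779 ± 279 CPM in MI+BPD and 1323 ± 403 CPM in MI (SD, n = 3 each).

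Because cardiomyocyte markers moved with these genes, the same test was run with each library scaled by the geometric mean of its 10 structural marker counts. This gives transcripts per marker transcript, a different quantity from the level in the tissue. Per 100 structural marker counts, Acadm had 36.2, 22.9 and 28.6 in MI+BPD, 21.7, 20.6 and 23.8 in MI and 43.4, 44.1 and 43.4 in Sham. Lpl had 193, 132 and 169 in MI+BPD, 124, 111 and 139.8 in MI and 242, 248 and 242 in Sham. For both genes all infarcted libraries lay below Sham on this scale too, and MI+BPD 1 lay nearest to it.

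Relative to these markers 27 of the 36 genes were lower in MI than in Sham, against 2.99% of all genes, and the median of the 36 was -0.73, against 1.55 over all genes. The lowest were Ucp3 (-2.14 ± 0.33), Acaa2 (-1.48 ± 0.23) and Eci1 (-1.23 ± 0.18). The 6 genes that were higher, against 84.6% of all genes, were Ucp2 (2.54 ± 0.35), Cpt1a (1.67 ± 0.28), Acaa1a (1.15 ± 0.22), Ppard (1.04 ± 0.20), Acad10 (0.74 ± 0.28) and Slc22a5 (0.59 ± 0.21). Slc27a1 (-0.01 ± 0.22), Eci2 (-0.13 ± 0.17) and Pdk4 (-0.71 ± 0.41) did not pass. With a library left out, 22 to 27 of the 36 were lower, against 2.21% to 3.42% of all genes. Scaled to 9 calcium-handling markers instead, 18 were lower and 6 higher, against 1.61% and 87.9% of all genes. On the structural scale 4 of those 9 markers were themselves lower and 1 higher, with a median of -0.26. The 10 structural markers set this scale, so some had to lie below 0 and some above, with 2 called lower and 4 higher. Of 16 further mitochondrial oxidation genes 6 were lower and 2 higher, with a median of -0.27. Lower values on this scale were thus not particular to the 36.

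In MI+BPD against Sham, 19 were lower relative to structural markers, against 1.32% of all genes, and Ucp2, Cpt1a, Acaa1a and Ppard were higher, against 73.5%, with a median of -0.45. The count of lower genes was 9 with calcium-handling markers, against 0.733% of all genes. It was 9, 10 and 6 without Sham 1, Sham 2 and Sham 3, against 0.621%, 0.603% and 0.528% of all genes. It was 21, 4 and 10 without MI+BPD 1, MI+BPD 2 and MI+BPD 3, against 2.0%, 0.359% and 0.546%. In MI+BPD against MI none passed relative to structural markers (smallest adjusted p 0.157, edgeR). At an unadjusted p under 0.05, 9 were higher and 2 lower, against 0.746% and 31.1% of all genes. Without MI 3, 12 were called higher and 6 lower, against 1.07% and 68.3% of all genes.

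**Figure D5:**
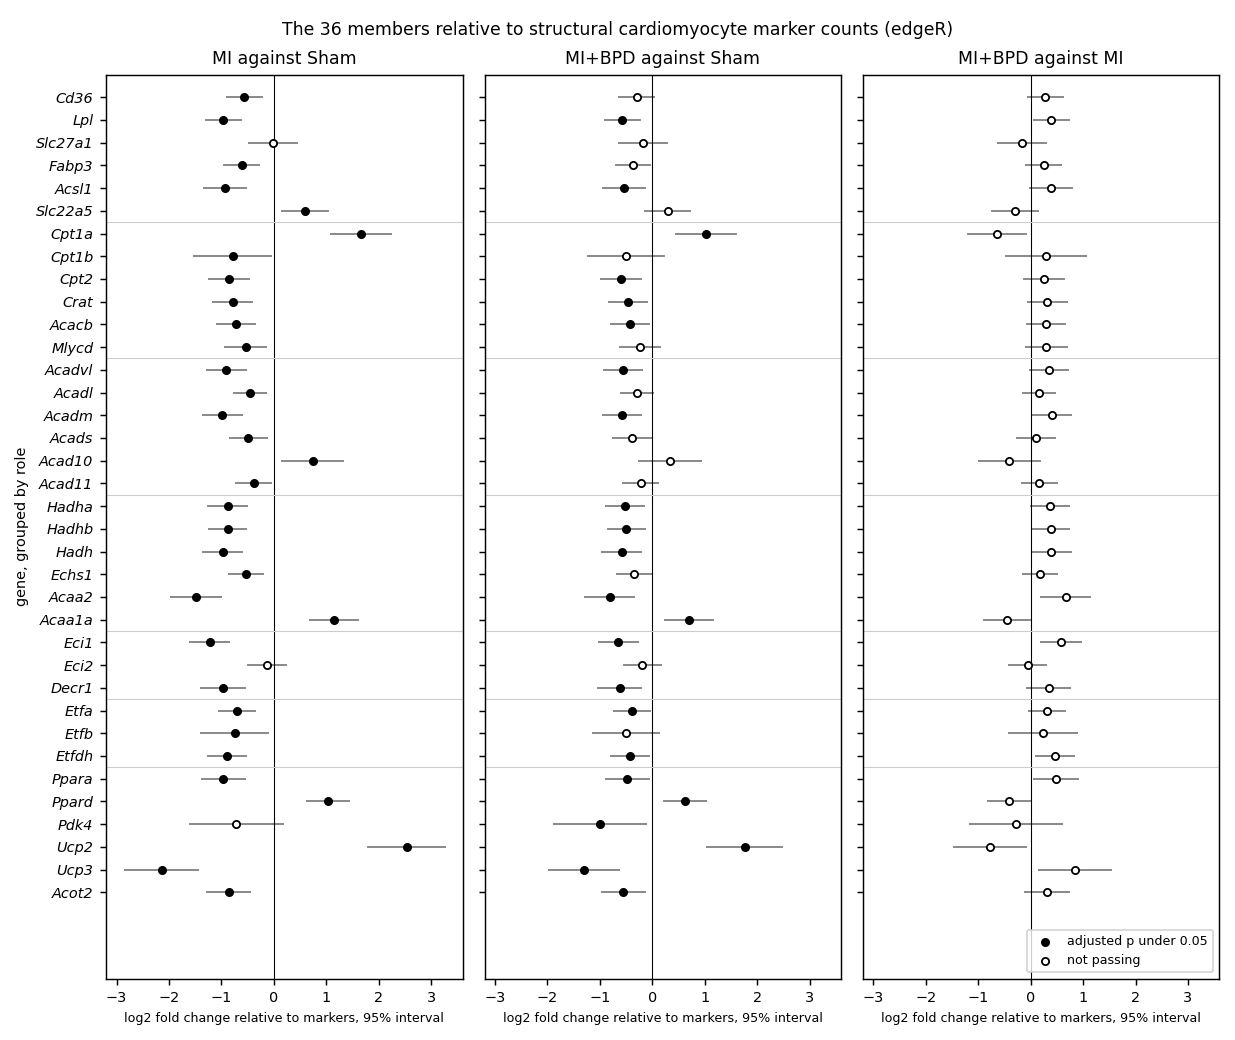
Log2 fold change of each of the 36 genes relative to structural cardiomyocyte markers, with its 95% interval, in MI against Sham, MI+BPD against Sham and MI+BPD against MI; filled points have an adjusted p under 0.05 (edgeR). In MI against Sham 27 genes lie filled left of 0, and Ucp2, at 2.54, and Cpt1a, at 1.67, lie farthest right.

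Ratios between pairs of these genes within a library do not depend on library scaling. The log2 count ratio of Ucp3 to Ucp2 was -2.31 ± 0.643 in MI+BPD, -3.68 ± 0.990 in MI and 0.82 ± 0.310 in Sham (SD, n = 3 each). The ratio of Acaa2 to Acaa1a was 2.44 ± 0.576 in MI+BPD, 1.41 ± 0.574 in MI and 4.01 ± 0.0805 in Sham. The ratio of Cpt1b to Cpt1a was -5.43 ± 0.717 in MI+BPD, -6.25 ± 0.625 in MI and -3.88 ± 0.287 in Sham. These are ratios of counts not divided by length, and the level of Cpt1b is uncertain, as given above. They are therefore read only as differences between groups, not as the balance of the genes in a pair. For these 3 ratios every infarcted library lay below every Sham library, with differences from Sham of -4.49, -2.60 and -2.37 for the MI libraries, then -3.13, -1.57 and -1.55 for the MI+BPD libraries, in the order given. Each had an exact 2-sided permutation p of 0.1, the smallest that 3 libraries against 3 allow, and 0.2 after adjustment over 12 tests, so these tests could not reach 0.05. Acacb to Mlycd, the opposed malonyl-CoA enzymes, differed by -0.18 in MI (exact permutation p = 0.4) and -0.19 in MI+BPD (exact permutation p = 0.2) against Sham. In MI+BPD against MI the 4 differences were 1.37 for Ucp3 to Ucp2, 1.03 for Acaa2 to Acaa1a, 0.82 for Cpt1b to Cpt1a and -0.01 for Acacb to Mlycd, with exact permutation p of 0.2, 0.2, 0.3 and 1.

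Other genes of the pathway, from lists written by role, were set beside the 36. Of all genes, 31.9% were called lower and 37.0% higher in MI, and 27.8% lower and 31.8% higher in MI+BPD, each against Sham. With library totals 11.7% were lower and 69.2% higher in MI. Further mitochondrial oxidation genes fell in 16 of 16 cases in MI and 16 of 16 in MI+BPD against Sham, with medians of -1.68 and -1.13. Among them Acadsb, the short/branched-chain dehydrogenase, was at -1.23 ± 0.13 in MI and -0.84 ± 0.13 in MI+BPD, and the thioesterase Acot1 at -2.95 ± 0.32 in MI and -2.13 ± 0.31 in MI+BPD. Mcee and Hsd17b10, enzymes of propionate and branched-chain oxidation, were at -1.87 ± 0.20 and -1.71 ± 0.19 in MI. Peroxisomal oxidation genes fell in 11 of 15 cases in MI, with 0 higher, and in 10 of 15 in MI+BPD, with smaller medians of -0.98 and -0.75. Amacr, a racemase for branched chains, was at -1.42 ± 0.13, the peroxisomal transporter Abcd3 at -1.35 ± 0.16, the multifunctional enzyme Hsd17b4 at -0.84 ± 0.09 and the reductase Pecr at -0.98 ± 0.11 in MI. With library totals 4 of 15 peroxisomal genes were called higher and 7 lower in MI, against 69.2% and 11.7% of all genes, and Hsd17b4 and Pecr did not pass.

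Of 15 other uptake and activation genes, 5 were higher and 7 lower in MI and 4 higher and 6 lower in MI+BPD against Sham. Of all genes, 37.0% were higher and 31.9% lower in MI and 31.8% and 27.8% in MI+BPD, so these counts lie near the background and are not a result about the list. Slc27a3, a transport protein of the same family as Slc27a1, was at 2.42 ± 0.26 in MI and 2.25 ± 0.26 in MI+BPD, and the synthetase Acsl5 at 1.13 ± 0.13 in MI and 0.96 ± 0.13 in MI+BPD. Gpihbp1, which anchors lipoprotein lipase on capillaries, was at -1.32 ± 0.15 in MI and -1.04 ± 0.15 in MI+BPD, and the synthetase Acsl6 at -2.60 ± 0.32 in MI and -1.35 ± 0.30 in MI+BPD. With library totals 8 of the 15 were called higher and 4 lower in MI, against 69.2% and 11.7% of all genes. Endothelial markers were called lower in 5 of 7 cases in both comparisons, and with library totals 3 were higher and 2 lower in MI and 2 higher and 0 lower in MI+BPD. Their part in the level of Gpihbp1 was not tested.

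Transcriptional control genes, among them nuclear receptors and their cofactors, fell in 13 of 15 cases in MI, with 1 higher. In MI+BPD 13 of 15 fell, with 2 higher. Of all genes, 31.9% and 27.8% were lower and 37.0% and 31.8% higher. Of the estrogen-related receptors, Esrrg was at -1.60 ± 0.18 in MI and -0.95 ± 0.18 in MI+BPD, and Esrra at -1.49 ± 0.19 in MI and -1.06 ± 0.19 in MI+BPD. Klf15, a Kruppel-like factor of heart metabolism, was at -2.04 ± 0.24 in MI and -1.23 ± 0.23 in MI+BPD, and Rxrg, a retinoid X receptor that pairs with PPARs, at -2.29 ± 0.33 in MI and -1.38 ± 0.32 in MI+BPD. With library totals 8 were called lower and 5 higher in MI, against 11.7% and 69.2% of all genes. Genes of the pyruvate dehydrogenase switch fell in 11 of 12 cases in both comparisons, with 1 higher, against the same shares of all genes. Beside Pdk4 these included the kinase Pdk2 (-2.05 ± 0.26 in MI and -1.35 ± 0.25 in MI+BPD) and the phosphatase Pdp2 (-2.32 ± 0.23 in MI and -1.67 ± 0.22 in MI+BPD). They also included Pdpr, a regulatory subunit of pyruvate dehydrogenase phosphatase (-1.52 ± 0.19 in MI and -0.98 ± 0.19 in MI+BPD), and the dehydrogenase subunit Dld (-1.83 ± 0.24 in MI and -1.20 ± 0.23 in MI+BPD). In MI+BPD against MI none of the genes in these lists was called (0%, edgeR), and the medians were 0.56 for other mitochondrial genes, 0.26 for peroxisomal genes, 0.01 for other uptake genes, 0.43 for transcriptional control and 0.55 for the pyruvate dehydrogenase switch.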

How the data were processed

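The deposited values were raw read counts per gene symbol for 9 libraries of total RNA from mouse left ventricle, 3 per group, per the labels. STAR and the builds mm10, GRCm39 and mm39 are named in the submitters' processing notes, with no role for each; which program counted reads, on which strand and with which annotation, is not given in the sources used here. All 9 columns were used, no 2 columns were identical and no symbol was repeated.

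The main test was edgeR 4.0.16 in R 4.3.3. Genes passed filterByExpr at a minimum count of 10 and a minimum total of 15, libraries were scaled by TMM, and 1 robust quasi-likelihood model with a mean per group was fitted to the 9 libraries (6 residual degrees of freedom, biological coefficient of variation 0.167). The 15138 genes tested held 99.9% of counts. Tests were 2-sided, with Benjamini-Hochberg adjustment over all genes tested and calls at an adjusted p under 0.05. Standard errors (SE) follow from the F statistic. The counts do not show whether molecular identifiers were used to set aside duplicate reads.

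A second edgeR fit scaled each library by the geometric mean of its structural cardiomyocyte marker counts. Count ratios used a pseudocount of 0.5 and exact permutation tests. Exon lengths and overlaps came from GENCODE M21 by symbol, and promoter windows from RefSeq. Alternatives were DESeq2 1.42.0, limma 3.58.1 voom with quality weights, other scalings, filters and thresholds, only the 2 groups compared, mitochondrially encoded genes left out, a replicate block, and each library left out. The procedure was tested on simulated data in which few genes changed, in MI only, with rises and falls in balance. That setting does not test the scaling where most genes are called, as in MI against Sham.

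All members are described, with up to 4 genes of smallest adjusted p in MI against Sham from each pathway list. The members and lists were chosen with earlier results of these data known.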

Additional observations from a re-analysis of the deposited data

How the results depend on the processing

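In MI against Sham and MI+BPD against Sham, 34 members were called lower in the unaltered analysis, against 31.9% and 27.8% of all genes. That count stayed within 1.5 times of 34 under every alternative run. With library totals only, 10478 genes were called higher and 1768 lower in MI against Sham, and 9131 and 1385 in MI+BPD against Sham, where 5594, 4835, 4816 and 4202 were called with TMM factors; the medians of all genes moved by 0.73 and 0.53. The count of members called higher in MI against Sham was 2 with limma-voom, against 39.7% of all genes. It was 4 with library totals, against 69.2%, and 1 to 2 with a library left out, against 32.8% to 36.3%. In MI+BPD against Sham it was 2 with library totals, against 60.3% of all genes. Calls were also lost, in MI+BPD against Sham, for Acaa1a with no filter and for Acaa1a and Ppard without Sham 2, Sham 3, MI+BPD 2 or MI+BPD 3, and with library totals for Slc22a5 and Acad10 in both comparisons with Sham. Reversed with library totals were Acaa1a (0.41) and Ppard (0.32) in MI against Sham, and Acaa1a (0.24) and Ppard (0.17) in MI+BPD against Sham. In MI+BPD against Sham, Cpt1a was called higher with library totals (0.56, adjusted p = 0.00947, edgeR), was below 0 with DESeq2 (-0.0075) and with median-ratio factors (-0.0076), and it ran from -0.025 to 0.065 with a library left out, below 0 without Sham 3 or MI+BPD 3.

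Between MI+BPD and MI, limma-voom called 23 members higher, with 820 of all genes higher and 243 lower, and DESeq2 called 21 of all genes higher and 30 lower. With a library left out, 0 to 22 members were called higher, 0 to 1126 of all genes higher and 0 to 227 lower, the highest counts without MI 3; relative to cardiomyocyte markers 0 to 12 members were higher and 0 to 6 lower, against 0% to 1.07% and 0% to 68.3% of all genes. Some estimates of single members changed sign. With library totals these were Slc22a5 (-0.034), Acad10 (-0.12), Acaa1a (-0.17), Ppard (-0.15) and Pdk4 (-0.037); with limma-voom Acaa1a (-0.019) and Pdk4 (-0.0014); with upper-quartile factors Acaa1a (-0.0072). With a library left out the estimates ran from -0.0064 to 0.18 for Acad10, -0.020 to 0.095 for Acaa1a, -0.040 to 0.15 for Ppard, -0.30 to 0.43 for Pdk4 and -0.44 to 0.0080 for Ucp2. Signs turned without MI 1 (Ppard, Pdk4 and Ucp2), MI+BPD 1 (Acad10, Acaa1a and Ppard) and MI+BPD 3 (Pdk4). The ratio of Acacb to Mlycd was -0.01 and ran from -0.15 to 0.060 with a library left out. Relative to cardiomyocyte markers, the count of members lower in MI+BPD against Sham was 9 with calcium-handling markers and 4 to 22 with a library left out, against 0.733% and 0.359% to 2.16% of all genes. The cause of these differences was not tested.

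The deviations of same-numbered libraries correlated at 0.143, 0.194 and -0.158 in MI+BPD and MI, at -0.0546, 0.0028 and -0.0399 in MI and Sham, and at -0.0940, -0.0596 and -0.0635 in MI+BPD and Sham. They were not over 0.1 in every pair of any comparison, so the numbers were not taken as pairs. With the replicate number as a block 34 members were lower and 1 higher in MI against Sham, against 30.8% and 35.7% of all genes. In MI+BPD against Sham the counts were likewise 34 and 1, against 25.7% and 30.2%. Between MI+BPD and MI 0 and 0 passed, as of all genes, so no count of members changed. With 3 libraries a group, leaving out 1 library moved the MI+BPD against MI counts more than any scaling did. Cpt1b and Etfb rest on few counts.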

Other observations

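Lipid storage and fatty acid synthesis genes were also measured. Of 19 tested genes of lipid droplets, triglyceride synthesis and lipolysis, 15 fell and 1 rose in MI against Sham, and 16 fell and 1 rose in MI+BPD against Sham, with medians of -1.27 and -1.06, where 31.9% of all genes were called lower and 37.0% higher in MI and 27.8% and 31.8% in MI+BPD. The droplet coat genes Plin4 and Plin3 were at -1.85 ± 0.16 and -1.23 ± 0.14 in MI. Pnpla2, the first lipase of triglyceride breakdown, was at -1.69 ± 0.18, and its activator Abhd5 at -0.88 ± 0.09. With library totals 11 fell and 3 rose in MI, against 11.7% and 69.2% of all genes, and Abhd5 did not pass. Of 11 synthesis genes, 8 were higher and 2 lower in MI and 7 higher and 2 lower in MI+BPD, each against Sham and against the same shares of all genes. With library totals 9 were higher and 2 lower in both comparisons. Of all genes, 69.2% were then higher and 11.7% lower in MI, and 60.3% and 9.15% in MI+BPD. The desaturase Scd2 was at 1.56 ± 0.09 in MI and 1.54 ± 0.09 in MI+BPD, and the elongases Elovl1 and Elovl6 were at 1.29 ± 0.12 and 1.42 ± 0.22 in MI. Me1, which supplies reducing power for synthesis, fell, at -1.01 ± 0.12 in MI.

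MI 1 stood apart for 2 synthesis genes chosen after their values were seen. Scd1 had 38.6, 51.2 and 63.99 CPM in MI+BPD libraries, 196, 45.9 and 42.2 CPM in MI libraries and 15.6, 15.4 and 19.6 CPM in Sham libraries. Fasn, the fatty acid synthase, had 29.8, 37.2 and 32.5 CPM in MI+BPD, 117, 37.3 and 35.9 CPM in MI and 19.8, 15.9 and 17.00 CPM in Sham. The summed level of 6 adipocyte markers was 149 CPM in MI 1 and at most 1.15 CPM in every other library. Their part in the 2 levels was not tested. In MI+BPD against MI none of the storage or synthesis genes was called (edgeR), with medians of 0.30 and -0.12.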
